A study of Mus musculus with 15 samples.

Results

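CD4 T cells with high CD44 and retained CD62L, sorted after priming in Batf3-/- recipients, were compared with naive CD4 T cells across all genes of the deposited count table. The members were 6 of the 15 libraries of the series, 3 of Batf3-/- CD62L+ cells and 3 of naive cells, chosen by their labels. All cells came from OT-II mice, whose T cells bear a transgenic receptor for an ovalbumin (OVA) peptide, and carried the congenic marker CD45.1. Naive CD4+ CD45.1+ cells were sorted from superficial lymph nodes and spleen of untreated CD45.1 x OT-II mice. The primed cells started as such naive cells, were injected into Batf3-/- mice, and 24 hours later met 60 µg OVA with 30 µg of the protease papain given through the nose, 3 times in all. On day 5 the CD44hi CD62L+ donor cells of the mediastinal node, which drains the lung, were sorted. The donor cells were not Batf3 deficient, since only the recipients carried the deletion. The other primed groups used here for 2 further comparisons were CD44hi CD62L+ cells from C57BL/6 wild-type (WT) recipients and CD44hi CD62L- cells from Batf3-/- recipients, 3 libraries each. The 3 libraries of CD62L- cells from WT recipients also entered the fit, and no test of that group is reported here. Ages and sexes of the mice are not given in the sources used here, nor are the animals behind each library, so p-values measure the spread between libraries. The organs of origin, the transfer, the host and the CD44 and CD62L gates differ between naive and primed cells together with priming, and their effects cannot be told apart.

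As background, mice without the transcription factor BATF3 fail to form type 1 conventional dendritic cells, which are known for presenting antigen to CD8 T cells and for producing interleukin 12. Papain is a protease allergen that drives type 2 responses through dendritic cells of the type 2 lineage. A naive CD4 T cell that meets its antigen divides, changes its metabolism and turns on a helper programme, such as that of T follicular helper (Tfh), type 2 helper (Th2) or type 1 helper (Th1) cells. CD62L is the selectin by which T cells enter lymph nodes from the blood, and most effector cells shed or silence it while central memory cells keep it.

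The labels were checked first against Cd44, a gene of the sort. This gene, which encodes the hyaluronan receptor that marks activated T cells, was at 18.4, 27 and 27.1 CPM (counts divided by the TMM-scaled library size, in edgeR's usual unit) in the naive libraries and at 150, 153 and 157 CPM in the Batf3-/- CD62L+ libraries. The groups did not overlap, and Cd44 rose 6.35-fold (log2 fold change 2.67, SE 0.17, edgeR quasi-likelihood adjusted p = 3.16e-08). Since Cd44 set a gate, these values describe the sort. Batf3 had 16 counts over the naive and 9 over the Batf3-/- CD62L+ libraries, too few to be tested, which says nothing of the recipients.

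The libraries held comparable depth, with 77022555 to 98200404 counts in the naive and 70712711 to 80826885 in the Batf3-/- CD62L+ ones. Counts on ribosomal RNA loci took 4.86 to 8.77% and 5.48 to 10.03% of them, and mitochondrial counts 1.21 to 1.62% and 0.764 to 1.58%. Among T cell identity genes, which encode the receptor complex and its kinases, 9 of 14 rose and 2 fell, and the median log2 fold change was 0.35. Cd4 itself, the co-receptor, averaged 822 ± 60 CPM (SD, n = 3) in naive and 1333 ± 65 CPM in primed cells (1.62-fold, edgeR adjusted p = 9.21e-05). Zap70, the kinase that docks on the activated receptor, rose 2.65-fold, and Cd5, a surface brake on receptor signalling, rose 2.84-fold. Thy1, a surface glycoprotein of T cells, was 1 of those that fell, and its call was lost without Batf3-/- CD62L+ library 1 (edgeR adjusted p = 0.0569), which left 1 gene lower. RNA of other cell types also moved with the comparison. Summed over the B cell marker list (19 of 19 genes tested), naive libraries held 223, 185 and 168 CPM and Batf3-/- CD62L+ libraries 624, 699 and 799 CPM. Summed over the erythroid list, they held 612, 710 and 667 CPM against 10.6, 37.4 and 18.7 CPM.

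Of 19942 genes tested, 6020 (30.2%) passed an adjusted p of 0.05 between Batf3-/- CD62L+ and naive cells, 3367 higher (16.9%) and 2653 lower (13.3%) in the primed cells. The libraries of both groups did not overlap for 9848 genes (49.4%), 5919 of them among the genes that passed. Many changes were small, with 2877 of the called genes under 2-fold. At the other end, 317 genes rose and 107 fell at least 64-fold. Among the called genes, 213 had no count in any naive library, but only 4 of those averaged 5 CPM or more in the primed cells. In bulk samples a difference can come from more cells that express a gene or from more RNA per cell, which these values cannot tell apart.

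The largest rises were in genes close to silent in naive cells. Gna14, an alpha subunit of the Gq class of G proteins, had no count in any naive library and stood at 21.1, 13.8 and 14.6 CPM in Batf3-/- CD62L+ cells. That is at least 1466-fold higher, taking 3 counts across the naive libraries as the floor, (edgeR adjusted p = 4.1e-10). Mpp2, a membrane scaffold of the MAGUK family, likewise had no naive count and was at least 1175-fold higher. Nrn1, a small membrane-anchored protein best known from neurons, was at 0, 0.0246 and 0.0246 CPM in naive and at 90.9, 93.7 and 79.6 CPM in primed libraries. All 3 primed libraries were high and alike, with a log2 fold change of 12.37 (SE 0.31, edgeR adjusted p = 3.56e-12). Slc9b2, a sodium and proton exchanger, had fewer than 4 counts over the naive group, and its counts per library size were 5436 times higher in primed cells (exact 95% Poisson interval 1505 to 44890). Chst2, a sulfotransferase that modifies carbohydrates of adhesion ligands, was 5142 times higher on the same measure (1424 to 42460). Both intervals take counts as independent and would be wider if both reads of a pair were counted. Bhlhe40, a transcription factor of activated helper cells, was at 0.0765, 0.0246 and 0.788 CPM in naive cells and at 215, 426 and 815 CPM in primed cells. Its primed libraries were uneven, with the third the highest, yet all stayed far from the naive ones (log2 10.73, SE 0.97, edgeR adjusted p = 1.26e-06). Gjb2, a connexin of gap junctions, and Cpd, a carboxypeptidase, completed the 10 largest rises with Il21 and Il1r1, which are described with their programmes.

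The largest falls took genes from clear naive levels to near silence. Ly6c1, a surface protein of the Ly6 family, was at 639, 753 and 710 CPM in naive libraries and at 1.41, 1.78 and 1.8 CPM in Batf3-/- CD62L+ libraries. The groups were far apart, a fall of 420-fold (log2 -8.72, SE 0.49, edgeR adjusted p = 9.93e-09), although near-identical genes of its family could share reads. Dntt, the polymerase that adds bases at receptor joints in the thymus, was at 94.5, 112 and 93.6 CPM in naive cells. In primed cells it was at 0, 0 and 0.267 CPM (log2 -10.09, SE 0.98, edgeR adjusted p = 2.52e-06). Acoxl, a gene related to acyl-CoA oxidases, averaged 12.02 ± 1.54 CPM in naive cells and had no count in primed ones, so that it was at least 936-fold lower. Slc16a5, a transporter of the monocarboxylate family, fell 81.6-fold from 195 ± 12 to 2.39 ± 0.52 CPM. Car2, a carbonic anhydrase that is also in the erythroid list, fell 63.9-fold beside the erythroid sums given above, and the part of those transcripts in its fall was not tested. Tbc1d16, Hoxa7, Sorcs2, Pdlim4 and Tlr12 completed the 10. Hoxa7, a homeobox factor, lost its call without Batf3-/- CD62L+ library 1 (edgeR adjusted p = 0.0514) or library 3 (0.0528) and with DESeq2 (0.122). On the scale of mean CPM, the largest gains included the cytoskeletal genes Actb, from 10960 ± 609 to 17160 ± 317 CPM, Tmsb4x, from 4502 ± 602 to 6710 ± 109, and Rac2, from 1244 ± 71 to 2457 ± 66. The largest losses included Malat1, a nuclear long noncoding RNA, from 6722 ± 2259 to 1861 ± 117 CPM, and the class I antigen presentation genes H2-K1, B2m and H2-D1, which fell 1.39- to 1.62-fold.

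**Figure D1:**
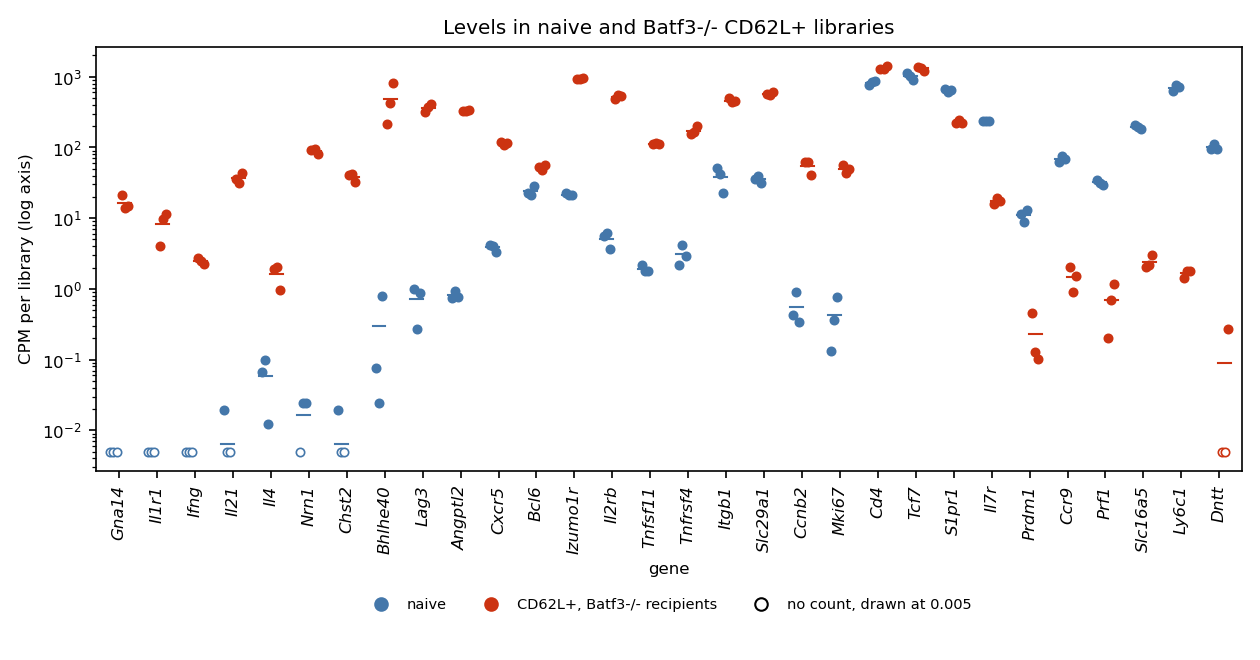
Level of selected genes in each library (CPM on a log axis; points are the 3 naive and the 3 Batf3-/- CD62L+ libraries, lines are group means, and open points at the bottom are libraries without a count). Il7r, for example, sits at 234 to 240 CPM in naive cells and at 15.7 to 19.1 CPM in Batf3-/- CD62L+ cells, while Cxcr5 goes from 3.32 to 4.17 up to 108 to 121 CPM.

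The plot of levels by library shows 30 of the genes named in the text and how far the groups lie apart. Genes of the Tfh programme formed the helper list with the most rises. Of 20 Tfh genes tested, 17 rose and 1 fell, and the median log2 fold change was 3.74, against 0 over all genes tested. Cxcr5, the chemokine receptor that draws cells to B cell follicles, was at 4.17, 4.09 and 3.32 CPM in naive and at 121, 108 and 114 CPM in Batf3-/- CD62L+ libraries. It rose 29.6-fold without overlap (log2 4.89, SE 0.12, edgeR adjusted p = 1.86e-12). Bcl6, the transcription factor that defines Tfh cells, was at 22.9, 21.6 and 28.9 CPM in naive and at 53.8, 47.5 and 55.8 CPM in primed libraries. The groups were again apart, but the rise was only 2.14-fold (SE 0.12 on the log2 scale, edgeR adjusted p = 9.25e-06). Il21, the cytokine by which Tfh cells act on B cells, was at 0.0191, 0 and 0 CPM in naive cells and at 36.2, 31.9 and 43.4 CPM in primed cells. On counts per library size it was 4973 times higher (exact 95% Poisson interval 1377 to 41060), with the opposite-strand gene Gm12534 overlapping it.

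Surface and nuclear regulators of the Tfh list moved with Cxcr5. Pdcd1, which encodes the inhibitory receptor PD-1, rose 75-fold from 2.92 ± 1.7 to 221 ± 32 CPM. Icos, a costimulatory receptor, was at 23.2, 24.7 and 30.2 CPM in naive and at 513, 589 and 721 CPM in primed libraries, a 23.4-fold rise without overlap (edgeR adjusted p = 2.2e-10). Tox2, an HMG box factor that promotes Tfh development, rose from 0.254 ± 0.232 to 112 ± 26 CPM. Maf, a factor that drives Il21 and Il4 in helper cells, rose 50.2-fold, and Irf4, a factor induced by receptor signals, rose 19.9-fold. Angptl2, an angiopoietin-like secreted protein, was at 0.736, 0.946 and 0.763 CPM in naive and at 324, 325 and 339 CPM in primed libraries. Its libraries were alike within each group and far apart between groups (405-fold, SE 0.20 on the log2 scale, edgeR adjusted p = 1.48e-12). Cd40lg, the ligand by which helper cells license B cells, was the exception. It stood at 231, 241 and 231 CPM in naive and at 144, 122 and 117 CPM in primed cells and fell 1.83-fold (edgeR adjusted p = 1.71e-05). Il6ra did not pass the test, and Ascl2, a factor of early Tfh cells, had no count in the 6 libraries. Since the B cell marker sums were also higher in the primed libraries, B cell genes of the Tfh list such as Pou2af1 (8.92-fold higher) have those sums beside them, and the part of B cell RNA in these rises was not tested.

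Type 2 genes rose in smaller number. Of 19 genes in the Th2 list 13 could be tested, 8 rose (5 in a fit of the 6 libraries alone) and 1 fell, with a median log2 fold change of 2.57. The effector cytokines Il5, Il9, Il3 and Csf2 were too low to test, and Il13 had no count at all in the 6 libraries. Il4, the signature cytokine, was at 0.0669, 0.0983 and 0.0123 CPM in naive and at 1.89, 2.05 and 0.979 CPM in Batf3-/- CD62L+ libraries. It rose 26.8-fold without overlap (log2 4.74, SE 0.45, edgeR adjusted p = 1.9e-06). Gata3, the factor that specifies Th2 cells, was at 199, 166 and 174 CPM in naive and at 336, 320 and 395 CPM in primed libraries. Its rise was 1.95-fold (SE 0.13 on the log2 scale, edgeR adjusted p = 4.77e-05). Receptors found on type 2 cells rose further, among them Ccr8, a chemokine receptor, from 0.691 ± 0.427 to 23.8 ± 6.8 CPM, and Crlf2, the receptor chain for TSLP, by 5.06-fold. Il17rb, the receptor for IL-25, rose 5.94-fold, and Ccr4, another chemokine receptor, 11.3-fold, a call lost in a fit of the 6 libraries alone (edgeR adjusted p = 0.0539). Il4ra, the receptor chain for IL-4 and IL-13, fell 3.12-fold from 246 ± 31 to 78.8 ± 2.6 CPM. Areg and Pparg also passed but overlapped the naive libraries, which had no counts, with 0 to 1.12 and 0 to 0.429 CPM in primed cells. Both calls were lost without any 1 of the naive libraries, that of Areg also without Batf3-/- CD62L+ library 3 and that of Pparg without library 1 (edgeR adjusted p 0.0648 to 0.0703 and 0.082 to 0.258).

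Th1 genes split. Of 20 tested, 8 rose and 4 fell, and the median was 0.67. Ifng, the signature cytokine, had no naive count and stood at 2.72, 2.45 and 2.26 CPM in Batf3-/- CD62L+ cells. That is at least 220-fold higher (edgeR adjusted p = 6.03e-08). Tbx21, which encodes the Th1 factor T-bet, was at 0.191, 0.221 and 0 CPM in naive and at 1.82, 0.876 and 1.33 CPM in primed cells, a rise at low levels (9.6-fold, edgeR adjusted p = 0.00293, and 0.0566 in a fit of the 6 libraries alone). Cxcr3, a chemokine receptor of Th1 cells, rose 16-fold and Nkg7, a protein of cytotoxic granules, 15.4-fold. The 4 that fell included Prf1, the pore-forming perforin, at 35.2, 31.7 and 29.4 CPM in naive and at 0.201, 0.696 and 1.17 CPM in primed libraries (46.4-fold, edgeR adjusted p = 0.00769). Il18r1, a receptor chain for IL-18, fell 9.28-fold, and Gzma, a granzyme, 18.7-fold. Summed markers of CD8 T and NK cells, a list that shares Prf1 and Gzma, were at 87.7 to 100 CPM in naive and at 36.0 to 38.8 CPM in primed libraries, and their part in these falls was not tested.

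Of 10 Th17 genes, 5 rose and none fell, with a median of 4.33 (4.29 with genes lacking naive counts at their bound), a count that went to 3 without naive library 2. Il1r1, the IL-1 receptor, had no naive count and stood at 4.09, 9.66 and 11.3 CPM in primed libraries, at least 750-fold higher (edgeR adjusted p = 4.42e-07). Ahr, the aryl hydrocarbon receptor, rose 8.51-fold and Ccr6, a chemokine receptor, 28.1-fold. Il17a passed narrowly (edgeR adjusted p = 0.0466) at 0.188, 0.206 and 0.483 CPM, and its call was lost whichever of the 6 libraries was left out (0.0664 to 0.106). Il22, a cytokine that acts on epithelia, passed too, but 1 of its primed libraries was at 0, and the call was lost without any 1 of the naive libraries or Batf3-/- CD62L+ library 3 (edgeR adjusted p 0.0766 to 0.118).

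Of 16 regulatory T cell genes, 10 rose and 2 fell, and the median was 2.98. Foxp3, the factor that defines the lineage, was at 13.4, 18.3 and 16.6 CPM in naive and at 9.79, 9.35 and 10.1 CPM in Batf3-/- CD62L+ cells. It fell 1.65-fold (edgeR adjusted p = 0.0196), a call lost in 5 of 6 fits that left out a library, with adjusted p between 0.0575 and 0.0816. Without naive library 2 or 3, or any Batf3-/- CD62L+ library, 1 gene of the list was left lower. The genes that rose included Izumo1r, which encodes folate receptor 4, at 22.3, 20.98 and 21.4 CPM in naive and at 941, 920 and 962 CPM in primed libraries. The libraries were even within both groups and did not overlap (43.6-fold, log2 5.45, SE 0.09, edgeR adjusted p = 3.58e-14). Nrp1, a semaphorin co-receptor, rose 22.5-fold, and Ikzf2, which encodes Helios, 56.2-fold. Ctla4, an inhibitory receptor, rose 60.3-fold from 4.68 ± 0.87 to 283 ± 55 CPM. Il10, a regulatory cytokine, had no naive count and was at 2.27, 0.412 and 0.826 CPM in primed libraries. The coinhibitory receptors, which damp activated cells, added Lag3, which binds MHC class II, at 0.994, 0.27 and 0.886 CPM in naive and at 313, 374 and 406 CPM in primed cells (500-fold, edgeR adjusted p = 2.86e-10). Tigit, a receptor for nectin-like ligands, rose 54.7-fold, so that 6 of 10 tested members of that list rose and none fell.

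**Figure D2:**
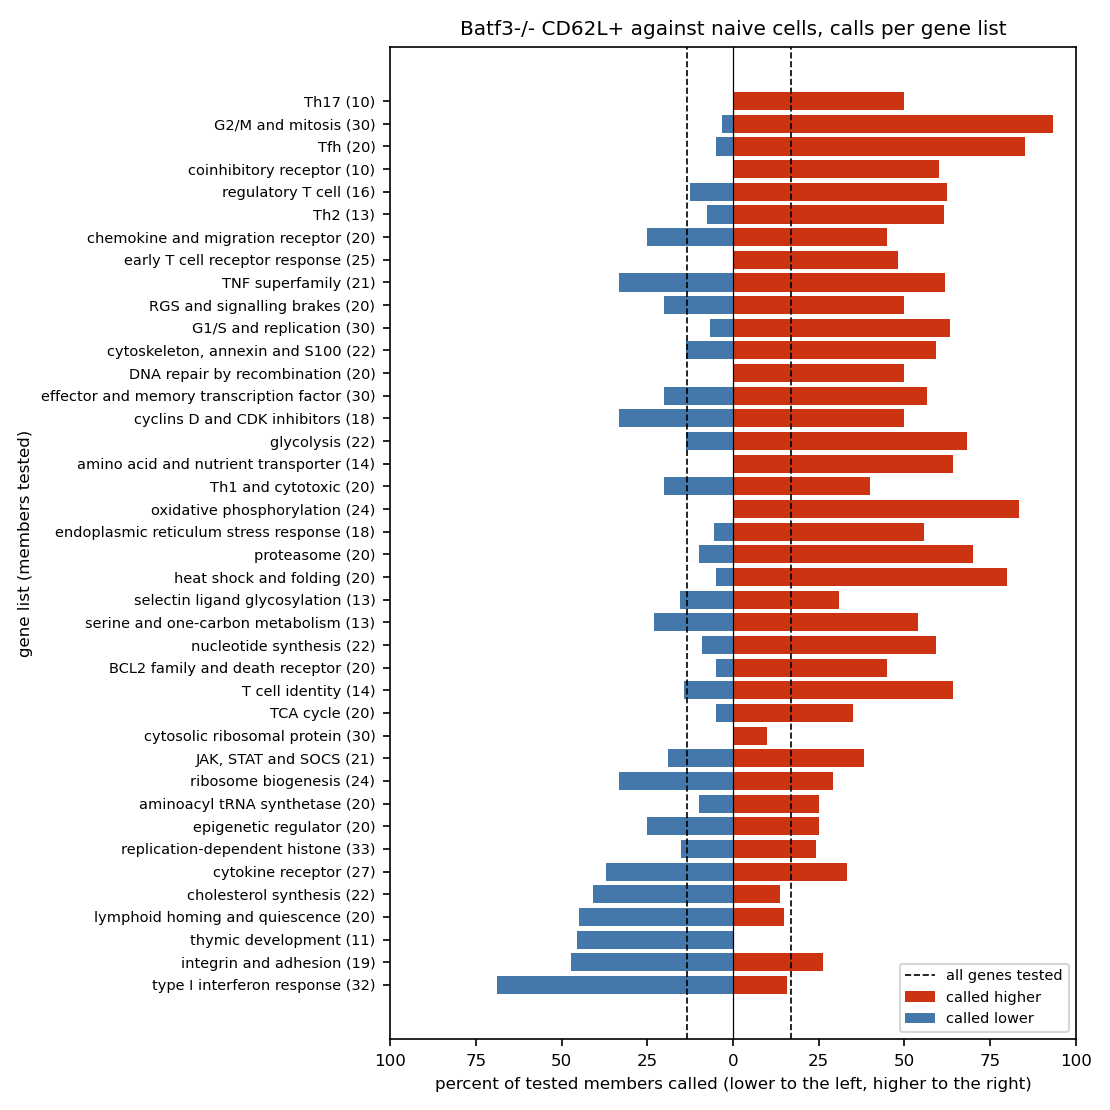
Members of each gene list called higher or lower in Batf3-/- CD62L+ than in naive cells (bars, % of the list's tested members), with the shares over all 19942 genes tested (16.9% higher, 13.3% lower) as lines. G2/M genes rose in 28 of 30 cases, and type I interferon genes fell in 22 of 32.

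The plot of calls per list sets the counts beside the shares over all genes. Receptors for cytokines were split between directions, with 9 of 27 higher, 10 lower and a median of -0.14. Il2rb, the beta chain shared by the IL-2 and IL-15 receptors, was at 5.52, 6.23 and 3.68 CPM in naive and at 480, 544 and 540 CPM in Batf3-/- CD62L+ libraries. It rose 101-fold (log2 6.66, SE 0.25, edgeR adjusted p = 1.97e-10). Il2ra, the alpha chain that raises affinity for IL-2, went the other way, from 20.4, 14.1 and 19.5 CPM to 7.73, 9.74 and 9.06 CPM (2.03-fold lower, edgeR adjusted p = 0.00814). Il7r, the receptor for the survival cytokine IL-7, was at 234, 240 and 239 CPM in naive and at 15.7, 19.1 and 17.6 CPM in primed cells. It fell 13.6-fold with little spread in either group (log2 -3.77, SE 0.19, edgeR adjusted p = 3.98e-09). Ifngr1, a receptor chain for interferon gamma, fell 2.35-fold and Il17ra, a receptor chain for IL-17, 1.65-fold. Of 21 JAK, STAT and SOCS genes, 8 rose and 4 fell, and the median was 0.05. Jak2 and Jak3, kinases of cytokine receptors, rose 2.27- and 2.02-fold, and Ptpn6, the phosphatase SHP-1, rose 2.1-fold. Stat2, which carries interferon signals, fell 2.91-fold. The 4 lower calls became 2 without naive library 2, naive library 3 or Batf3-/- CD62L+ library 1.

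The TNF superfamily changed almost throughout, with 13 of 21 tested genes higher, 7 lower and a median of 1.21. Tnfsf11, which encodes RANKL, was at 2.19, 1.82 and 1.8 CPM in naive and at 112, 116 and 113 CPM in Batf3-/- CD62L+ libraries. It rose 58.6-fold without overlap (log2 5.87, SE 0.13, edgeR adjusted p = 9.13e-13). The costimulatory receptors Tnfrsf4 (OX40) and Tnfrsf9 (4-1BB) rose 56.3- and 19.7-fold. Tnfsf4, the ligand of OX40, rose from 0.0246 ± 0.0426 to 11.3 ± 1.4 CPM. Tnfrsf1a, the widely expressed TNF receptor, fell 2.95-fold, and Cd27, a costimulatory receptor of resting and memory cells, fell 1.47-fold from 559 ± 13 to 381 ± 27 CPM. The 7 lower calls became 4 without naive library 1 or Batf3-/- CD62L+ library 2 or 3.

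Of 20 genes of lymphoid homing and quiescence, 9 fell, 3 rose and 8 did not pass, and the median was -0.61. S1pr1, the receptor that guides exit from lymph nodes, was at 671, 613 and 652 CPM in naive and at 225, 241 and 223 CPM in Batf3-/- CD62L+ libraries. It fell 2.81-fold (edgeR adjusted p = 1.76e-06). Klf2, the factor that drives S1pr1, was at 268, 307 and 200 CPM in naive and at 67.2, 164 and 83.7 CPM in primed libraries. Its fall of 2.46-fold (edgeR adjusted p = 0.00926) was lost without Batf3-/- CD62L+ library 1 (0.051) or library 3 (0.0508). Ccr7, the chemokine receptor for entry into the T cell zone, was at 1216, 1214 and 1158 CPM in naive and at 1059, 1472 and 2304 CPM in primed cells. The groups overlapped and Ccr7 did not pass (log2 0.43, SE 0.27, edgeR adjusted p = 0.259). Lef1 and Satb1, factors of naive and developing T cells, fell 2.23- and 3.03-fold, and Klf3, a relative of Klf2, fell 2.6-fold. Tcf7, which encodes TCF1 and is high in naive, memory and Tfh cells, was at 1126, 1026 and 902 CPM in naive and at 1361, 1340 and 1225 CPM in primed cells. It rose 1.29-fold (edgeR adjusted p = 0.00899), and Id3, an inhibitor of E proteins, rose 3.02-fold.

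Receptors and ligands that place cells in tissue changed in both directions. Of 20 chemokine and migration receptors tested, 9 rose and 5 fell. Beside Cxcr5, Ccr8, Ccr4, Ccr6 and Cxcr3, described above, Ptger4, a prostaglandin E2 receptor, rose 3.71-fold. Ccr9, the receptor for gut and thymus homing, was at 61.9, 76.5 and 67.8 CPM in naive and at 2.04, 0.915 and 1.51 CPM in primed libraries (46.2-fold lower, edgeR adjusted p = 0.000421). Cxcr4, a receptor for bone marrow and germinal centre dark zone signals, fell 3.43-fold. Integrins and adhesion genes fell in 9 of 19 cases and rose in 5, with a median of -0.83. Itgb1, the beta1 chain that pairs with many alpha chains, was at 51.2, 42.2 and 22.8 CPM in naive and at 494, 438 and 452 CPM in primed cells. It rose 11.9-fold (log2 3.57, SE 0.22, edgeR adjusted p = 3.07e-08), and Itgal, the alpha chain of LFA-1, rose 2.13-fold. Itgb7, the beta chain of the gut homing integrin, fell 1.95-fold, and Itgb3, a chain abundant on platelets, fell 7.1-fold. Selplg, the protein backbone of the P-selectin ligand, was at 856, 857 and 782 CPM in naive and at 282, 283 and 277 CPM in primed cells, a 2.96-fold fall (edgeR adjusted p = 2.08e-09). Of 13 tested glycosylation genes of selectin ligands 4 rose, 2 fell and 7 did not pass. Those that rose included Fut7, a fucosyltransferase, by 22.9-fold and Gcnt1, a branching enzyme of O-glycans, by 22.8-fold.

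Of 22 cytoskeleton, annexin and S100 genes, 13 rose and 3 fell, and the median was 1.07. S100a6, a small calcium binding protein, was at 0.115, 0.0983 and 0.271 CPM in naive and at 18.4, 20.8 and 17.7 CPM in Batf3-/- CD62L+ libraries. It rose 118-fold (SE 0.29 on the log2 scale, edgeR adjusted p = 4.9e-10). Anxa2, an annexin of the plasma membrane, rose 18.8-fold from 6.14 ± 0.7 to 115 ± 12 CPM, and Capg, an actin capping protein, 9.51-fold. Myo6, a myosin that walks toward the minus end of actin filaments, was at 25.2, 30.3 and 25.1 CPM in naive and at 10.3, 7.73 and 4.45 CPM in primed cells. It fell 3.59-fold (edgeR adjusted p = 3.77e-05) and is taken up again with the WT recipients.

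Early genes of T cell receptor signalling rose in 12 of 25 cases and fell in none, with a median of 1.62, and here the primed libraries differed among themselves. Dusp6, a phosphatase that limits ERK, was even, at 16.3, 14.1 and 14.7 CPM in naive and at 183, 175 and 150 CPM in Batf3-/- CD62L+ libraries (11.3-fold, edgeR adjusted p = 1.1e-11). Egr1 and Egr2, zinc finger factors induced by receptor signals, rose 6.07- and 9.98-fold. Nfkbia, the inhibitor of NF-kB, was at 401, 357 and 344 CPM in naive and at 512, 1268 and 2460 CPM in primed cells. It passed (edgeR adjusted p = 0.0158), while Tnfaip3, another feedback gene of NF-kB, at 268, 832 and 1702 CPM in primed and 269 to 303 CPM in naive cells, did not (edgeR adjusted p = 0.0784). The first call was lost without naive library 2 (0.0506) or 3 (0.0563) or Batf3-/- CD62L+ library 3 (0.0913). Tnfaip3 passed without Batf3-/- CD62L+ library 1 (0.0269) and with the replicate number as a block (0.028). It also passed without library 3 of WT CD62L- and of Batf3-/- CD62L- cells (0.0478). Summed over the list, the primed libraries stood at 5757, 10460 and 13200 CPM, against 4055 to 4295 CPM in naive cells. The libraries numbered 1 were also the lowest and those numbered 3 the highest of this sum in the 3 other primed groups (7050, 9165 and 12060 CPM in WT CD62L+ cells). That common order was seen in the data. Myc, a transcription factor of the same list, was at 96.8, 76.0 and 76.6 CPM in naive and at 95.3, 99.3 and 111 CPM in primed cells. It did not pass (edgeR adjusted p = 0.0991), although it did without naive library 1 (0.0332) and with limma's voom (0.031).

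**Figure D3:**
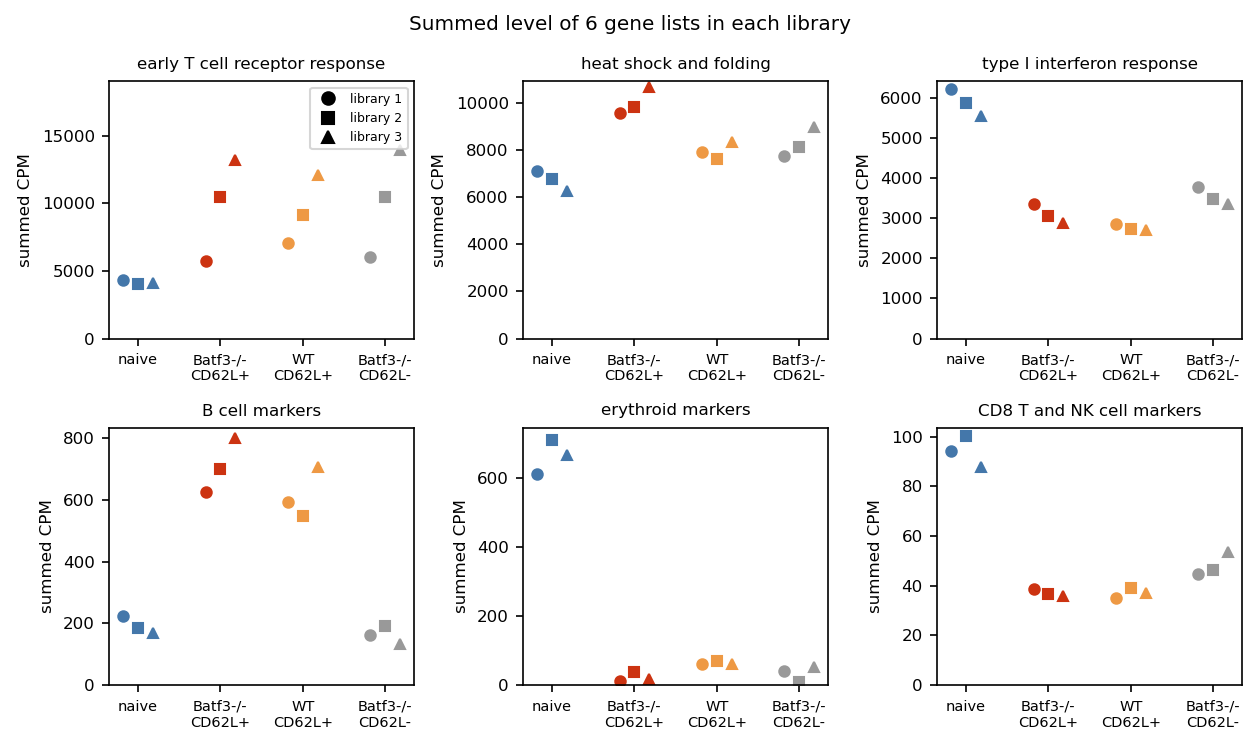
Summed CPM of gene lists in each library of the naive, Batf3-/- CD62L+, WT CD62L+ and Batf3-/- CD62L- groups (points; linear axes from 0). Early response sums spread from 5757 to 13200 CPM among Batf3-/- CD62L+ libraries, while B cell marker sums are 624 to 799 CPM there and 133 to 192 CPM in Batf3-/- CD62L- cells.

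The plot of summed levels shows this spread beside other lists. The erythroid sums were uneven too, at 10.6, 37.4 and 18.7 CPM in Batf3-/- CD62L+ libraries. Among 30 transcription factors of effector and memory cells, 17 rose and 6 fell. Nfatc1, a calcium-regulated factor of the receptor pathway, rose 10.3-fold from 82.2 ± 8 to 848 ± 90 CPM, and Id2, an E protein inhibitor, 4.98-fold. Prdm1, which encodes Blimp-1, the factor opposed to Bcl6, was at 11.3, 8.94 and 12.9 CPM in naive and at 0.456, 0.129 and 0.102 CPM in primed libraries. It fell 48-fold without overlap (log2 -5.59, SE 1.27, edgeR adjusted p = 0.00401). Zeb1, a repressor of Il2, fell 1.81-fold. Of 20 RGS genes and other brakes of signalling, 10 rose and 4 fell (7 with the replicate number as a block). Rgs16, which shortens G protein signals, was at 0.124, 0.0246 and 0.0984 CPM in naive and at 50.3, 93.4 and 117 CPM in primed cells (log2 9.96, SE 0.73, edgeR adjusted p = 1.34e-07). Rgs10 of the same family rose 5.28-fold, while Rgs11 fell 40.1-fold and Dgka, a kinase that consumes diacylglycerol, 1.94-fold.

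Cell division genes made up the list with the highest share of calls. Of 30 G2/M and mitosis genes 28 rose and 1 fell, with a median log2 fold change of 4.33. Mki67, the proliferation marker Ki-67, was at 0.134, 0.369 and 0.775 CPM in naive and at 57.3, 44.1 and 49.1 CPM in Batf3-/- CD62L+ cells. It rose 121-fold (log2 6.91, SE 0.44, edgeR adjusted p = 3.19e-08). Ccnb2, a mitotic cyclin, was at 0.421, 0.897 and 0.345 CPM in naive and at 62.6, 61.3 and 40.3 CPM in primed libraries. All primed libraries were high, with the third the lowest (99.3-fold, log2 6.63, SE 0.30, edgeR adjusted p = 9.6e-10). Cdk1, the kinase that mitotic cyclins activate, was at 0.191, 0 and 0.394 CPM in naive and at 17.6, 10.98 and 10.6 CPM in primed cells (66.6-fold, edgeR adjusted p = 5.65e-06). Kif11, a spindle motor, rose 75.3-fold, and Ube2c, which helps to mark cyclins for destruction, 85.5-fold. Pttg1, the securin, fell 1.54-fold, and Kif23 did not pass.

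Promoters of this list are shown because its members moved together. The promoter letters come from RefSeq (GRCm38.p6), cover 250 bases before to 50 after the annotated start, and are written along the gene's strand. Capitals mark the CHR element TTTGAA and the CCAAT box, on either strand, that a search found. Ccnb2 lies on the minus strand (chr9:70421505-70421804) and Cdk1 on the minus strand (chr10:69352863-69353162). They were chosen for display after their values were seen.
Ccnb2: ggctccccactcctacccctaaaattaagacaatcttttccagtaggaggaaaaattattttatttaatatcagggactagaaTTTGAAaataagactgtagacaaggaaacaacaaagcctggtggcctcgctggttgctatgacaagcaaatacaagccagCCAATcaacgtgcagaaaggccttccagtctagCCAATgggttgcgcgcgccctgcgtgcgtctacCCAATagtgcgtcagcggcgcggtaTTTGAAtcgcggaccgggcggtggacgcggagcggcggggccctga
Cdk1: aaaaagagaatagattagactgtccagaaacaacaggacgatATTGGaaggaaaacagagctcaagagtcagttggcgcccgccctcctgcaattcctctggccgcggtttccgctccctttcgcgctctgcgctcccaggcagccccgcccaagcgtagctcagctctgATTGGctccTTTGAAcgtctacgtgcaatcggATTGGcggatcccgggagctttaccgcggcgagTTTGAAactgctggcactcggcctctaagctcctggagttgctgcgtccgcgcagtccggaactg
Both hold 2 CHR elements and 3 CCAAT boxes, those of Cdk1 in reverse as ATTGG. Of the list's 30 genes 23 had a promoter in the table, and TTTGAA was in 15 of them (65.2%), against 16.7% of all 19044 promoters. CCAAT was in 19 of 23 (82.6%), against 38.4% of all. A match of letters is a description and shows no binding.

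Genes of DNA replication rose less far. Of 30 G1/S genes, 19 rose and 2 fell, with a median of 1.12. The 2 lower ones, Gins2 and Cdt1, were barely past the threshold, and 1 was lower without naive library 1 and none without any other of the 6 libraries. Mcm5, a subunit of the replicative helicase, was at 35.2, 36.5 and 29.9 CPM in naive and at 89.7, 93.7 and 100.0 CPM in primed libraries. It rose 2.79-fold (log2 1.48, SE 0.12, edgeR adjusted p = 4.42e-07). Uhrf1, which guides maintenance of DNA methylation at the fork, rose 13.8-fold from 3.37 ± 1.27 to 46.7 ± 5.1 CPM. The Mcm5 promoter (GRCm38.p6, plus strand, chr8:75109259-75109558) is shown with the E2F letters TTTGGCG or TTTCCCG or TTTCGCG, on either strand, in capitals, where 2 matches overlap.
Mcm5: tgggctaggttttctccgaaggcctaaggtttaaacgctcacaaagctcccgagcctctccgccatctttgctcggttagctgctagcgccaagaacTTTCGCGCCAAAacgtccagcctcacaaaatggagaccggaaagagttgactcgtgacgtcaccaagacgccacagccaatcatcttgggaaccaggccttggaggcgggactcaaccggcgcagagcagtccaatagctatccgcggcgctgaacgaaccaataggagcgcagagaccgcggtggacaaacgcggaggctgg
Such letters were in 13 of 23 promoters of the list (56.5%) and in 6.85% of all. In nucleotide synthesis 13 of 22 genes rose and 2 fell, the latter becoming 1 without naive library 1 or 3 or Batf3-/- CD62L+ library 2 or 3. Rrm2, a subunit of ribonucleotide reductase, rose 15.2-fold from 5.4 ± 1.69 to 82.4 ± 17.5 CPM, and Tk1, thymidine kinase, 26.1-fold, with Afmid overlapping it. Impdh1, an enzyme of guanine nucleotide synthesis, fell 3.71-fold. Recombination repair genes rose in 10 of 20 cases and fell in none.

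Regulators of entry into the cycle were divided. Of 18 cyclin D, CDK and CDK inhibitor genes, 9 rose and 6 fell. Cdk4, a kinase that cyclins D activate, was at 116, 112 and 107 CPM in naive and at 230, 220 and 222 CPM in Batf3-/- CD62L+ libraries (2.01-fold, edgeR adjusted p = 1.25e-07), with Tspan31 overlapping it. Ccnd3, a D-type cyclin, fell 1.68-fold and Cdkn1b, the inhibitor p27, 1.39-fold. Histone genes of the replication clusters did not follow the other division genes, with 8 of 33 higher, 5 lower and a median of -0.08. Those called were 39.4% of the histone list, against 30.2% of all genes tested. The 5 became 3 whichever of the 6 libraries was left out. Their transcripts lack poly(A) tails and the copies are near identical, so these counts are uncertain. Among 20 epigenetic regulators 5 rose, such as Uhrf1, and 5 fell, a count that went to 3 without naive library 1 or Batf3-/- CD62L+ library 2 or 3.

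**Figure D4:**
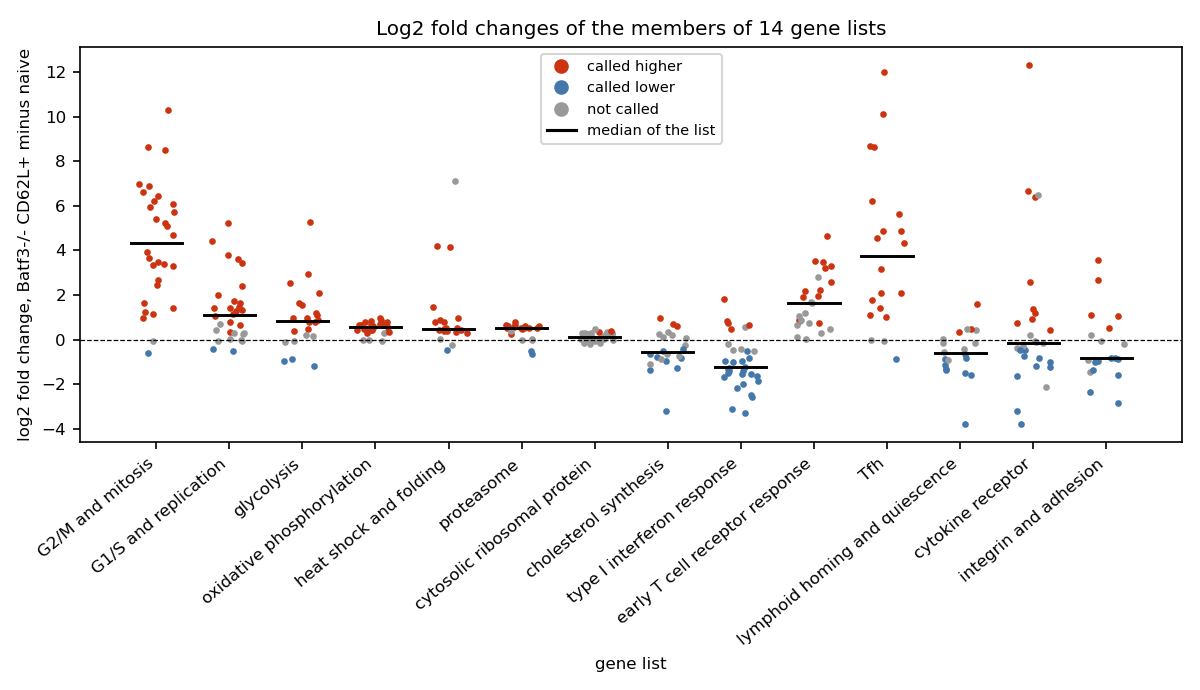
Log2 fold change, Batf3-/- CD62L+ minus naive, of every tested member of 14 gene lists (points, red where called higher, blue where called lower and grey where not called; black lines are list medians). G2/M genes reach from -0.62 to 10.29 with a median of 4.33, while oxidative phosphorylation genes lie between -0.08 and 0.97 with a median of 0.57.

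The plot of members by list gives the spread of each metabolic list. In oxidative phosphorylation 20 of 24 genes rose and none fell, by small amounts, with a median of 0.57. Cox7b, a subunit of cytochrome c oxidase, was at 58.9, 60.6 and 53.7 CPM in naive and at 106, 104 and 104 CPM in Batf3-/- CD62L+ libraries. The 1.81-fold rise was even between libraries (edgeR adjusted p = 1.24e-05), and Ndufa4, another subunit of the respiratory chain, rose 1.72-fold. In glycolysis 15 of 22 genes rose and 3 fell, with a median of 0.85. Tpi1, triose phosphate isomerase, was at 25.8, 25.6 and 23.4 CPM in naive and at 139, 155 and 146 CPM in primed cells (5.89-fold, edgeR adjusted p = 1.71e-09). Ldha, a lactate dehydrogenase chain, rose 1.85-fold, and Ldhb, the other chain, fell 2.24-fold. The 3 lower glycolytic calls became 1 without Batf3-/- CD62L+ library 3. Of 20 genes of the TCA cycle, 7 rose and 1 fell (40% called, against 30.2% of all genes tested).

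Slc29a1, a nucleoside transporter, was at 36.1, 40.1 and 31.0 CPM in naive and at 569, 549 and 605 CPM in Batf3-/- CD62L+ libraries. It rose 16.1-fold (log2 4.01, SE 0.12, edgeR adjusted p = 1e-11), and 9 of 14 nutrient transporters rose while none fell (1 without Batf3-/- CD62L+ library 3). Psat1, an enzyme of serine synthesis, rose 6.97-fold from 13.3 ± 1.8 to 92.7 ± 7.8 CPM. In its list 7 of 13 rose and 3 fell, the 3 becoming 1 without naive library 2 or Batf3-/- CD62L+ library 2 and 0 without Batf3-/- CD62L+ library 3. Cholesterol synthesis and uptake went down more than up, with 9 of 22 lower and 3 higher. Fdps, an enzyme of the mevalonate pathway, fell 1.71-fold while Dhcr7, the last step to cholesterol, rose 1.54-fold.

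Calls were counted separately for each step of protein production and turnover. Of 30 cytosolic ribosomal protein genes 3 rose and none fell. With the replicate number as a block 12 were higher, with limma's voom 6 were higher and 1 lower, and 1 was higher without naive library 1 or 3 or Batf3-/- CD62L+ library 2 or 3. Ribosome biogenesis had 7 of 24 higher, such as Ncl, nucleolin (1.55-fold), and 8 lower, such as Polr1a, the catalytic chain of RNA polymerase I (1.96-fold). Of 20 tRNA synthetases 5 rose and 2 fell, or 1 without naive library 1 or 2 or Batf3-/- CD62L+ library 1 or 3. The share of synthetases called, 35%, was near the 30.2% of all genes tested, and their median was -0.05. In the proteasome list 14 of 20 rose and 2 fell. Psmb1, a constitutive subunit, rose 1.7-fold, whereas the immunoproteasome subunit Psmb9, overlapped by Tap1, was at 278, 280 and 288 CPM in naive and at 180, 184 and 179 CPM in primed cells (1.56-fold lower, edgeR adjusted p = 1.07e-05). Of 20 heat shock and folding genes 16 rose and 1 fell, or 2 without Batf3-/- CD62L+ library 3. Hspa1a, an inducible HSP70, was at 6.62, 7.77 and 6.72 CPM in naive and at 68.5, 139 and 173 CPM in Batf3-/- CD62L+ libraries (18-fold, edgeR adjusted p = 3.96e-06), though its near-identical copy Hspa1b can share its reads. Hspa5, the chaperone BiP of the endoplasmic reticulum, rose 2.71-fold. In the endoplasmic reticulum list 10 of 18 rose, such as Xbp1 (1.69-fold), which drives the secretory programme, and Trib3 fell, a call lost without Batf3-/- CD62L+ library 1 (edgeR adjusted p = 0.0548) or 2 (0.0511).

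Most interferon response genes fell. Of 32 tested, 22 fell and 5 rose, with a median of -1.25, and their summed level was 5548 to 6228 CPM in naive and 2868 to 3349 CPM in Batf3-/- CD62L+ libraries. Ifit3, which restrains viral translation, was at 153, 133 and 117 CPM in naive and at 33.4, 22.7 and 11.96 CPM in primed cells. It fell 5.91-fold without overlap (log2 -2.56, SE 0.36, edgeR adjusted p = 8.85e-05). Irf7, the factor that amplifies the response, was at 280, 325 and 303 CPM in naive and at 94.99, 89.6 and 64.9 CPM in primed cells (3.64-fold lower, edgeR adjusted p = 6.7e-08). Oas2, a sensor of double-stranded RNA, fell 9.89-fold. The 5 that rose were Ifi27l2a, Isg15, Ifih1, Oas1a and Isg20, and they became 3 without naive library 2 or 3, when Ifih1 and Isg20 lost their calls, the latter also without Batf3-/- CD62L+ library 1. Isg15, a ubiquitin-like modifier, was at 15.4, 18.6 and 17.9 CPM in naive and at 29.9, 34.1 and 29.4 CPM in primed libraries (1.8-fold, edgeR adjusted p = 0.00391). Ifi27l2a, an interferon-induced protein, rose 3.5-fold from 220 ± 14 to 768 ± 39 CPM.

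The promoters of a gene that fell and of one that rose are shown, also chosen with their values known, with the core of the interferon response element, GAAANNGAAA on either strand, in capitals. Ifit3 is on the plus strand (GRCm38.p6, chr19:34583279-34583578) and Isg15 on the minus strand (chr4:156200769-156201068).
Ifit3: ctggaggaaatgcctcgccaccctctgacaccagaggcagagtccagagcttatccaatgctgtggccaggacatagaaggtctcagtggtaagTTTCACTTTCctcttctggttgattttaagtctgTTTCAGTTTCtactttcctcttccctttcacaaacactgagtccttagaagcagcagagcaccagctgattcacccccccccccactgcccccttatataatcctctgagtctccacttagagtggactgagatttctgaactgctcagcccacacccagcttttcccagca
Isg15: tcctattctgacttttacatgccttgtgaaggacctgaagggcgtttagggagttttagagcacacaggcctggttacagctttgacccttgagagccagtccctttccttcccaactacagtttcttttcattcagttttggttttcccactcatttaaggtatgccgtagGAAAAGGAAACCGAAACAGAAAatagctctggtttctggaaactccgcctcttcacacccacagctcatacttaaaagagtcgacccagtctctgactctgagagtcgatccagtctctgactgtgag
Ifit3 holds 2 cores in reverse and Isg15 3 overlapping ones, so genes with these letters moved in both directions. The core was in 11 of 21 promoters of the list (52.4%) and in 3.37% of all.

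**Figure D5:**
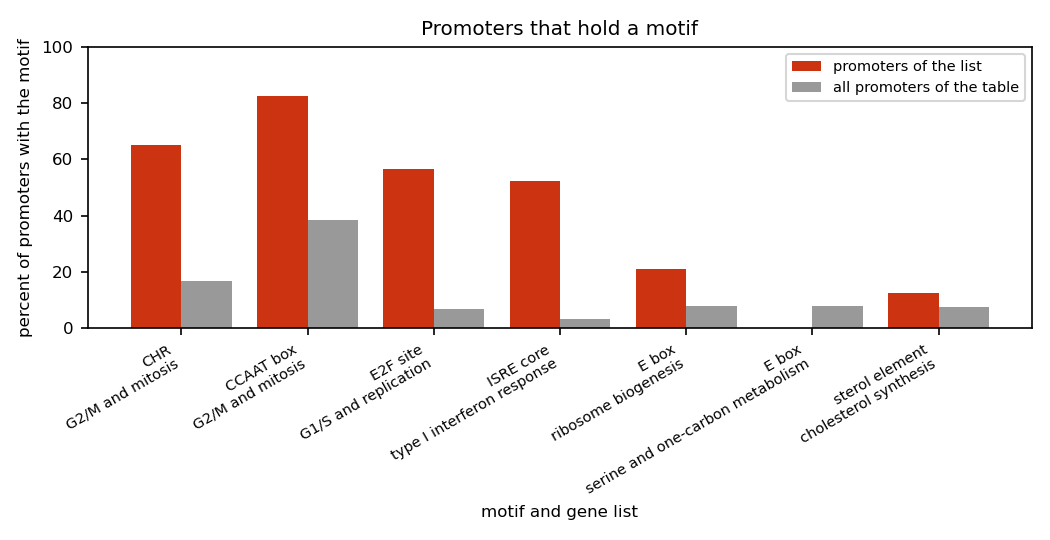
Share of promoters (250 bases before to 50 after the start) that hold a motif, in a gene list and in all 19044 promoters (bars, %). The interferon core is in 52.4% of the interferon list and in 3.37% of all, and the E2F letters in 56.5% of the G1/S list and in 6.85% of all.

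The plot of promoter motifs also gives lists where a smaller share of promoters held the letters than in the lists above. CACGTG, the E box, was in 4 of 19 promoters of ribosome biogenesis (21.1%), in none of 12 of one-carbon metabolism and in 7.77% of all. CACCCCA, a sterol element, was in 2 of 16 promoters of the cholesterol list (12.5%) and in 7.58% of all.

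Genes of cell survival and cell death, taken as 1 list, rose more often than they fell. Of 20 genes of the BCL2 family and death receptors 9 rose and 1 fell. Bcl2a1d, a pro-survival member with near-identical copies that can share reads, was at 2.03, 2.56 and 1.92 CPM in naive and at 88.2, 101 and 102 CPM in Batf3-/- CD62L+ cells (44.8-fold, edgeR adjusted p = 4.15e-12). Bcl2, the survival gene maintained by IL-7, fell 2.02-fold from 94.6 ± 10.02 to 46.8 ± 7.26 CPM. Of the thymic development list, 5 of 11 fell and none rose, namely Dntt, Hoxa7, Ccr9, Satb1 and Themis, the last an adaptor of the receptor in developing T cells.

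Markers of other cells also differed between the groups. Of the B cell list 14 of 19 rose and none fell. Cd74, the invariant chain of MHC class II, overlapped by Mir5107, rose 3.97-fold from 80.2 ± 16.2 to 318 ± 29 CPM. In the erythroid list 8 of 9 fell. Hba-a1, an alpha globin with a near-identical copy, was at 269, 298 and 274 CPM in naive and at 5.02, 15.8 and 8.54 CPM in primed cells (28.6-fold lower, edgeR adjusted p = 7.22e-06). Of the CD8 T and NK cell list 3 of 9 fell and 1, Klrb1c, rose. Of 16 tested dendritic cell and macrophage markers 3 rose (Ccl22, Fscn1 and Lyz2), with sums of 20.2 to 26.2 CPM in naive and 31.6 to 34.2 CPM in primed libraries. Csf1r fell, a call lost whichever of the 6 libraries was left out (edgeR adjusted p 0.0684 to 0.151). The share called among these tested markers was 25%, against 30.2% of all genes tested. Clec9a, Cd14, Fcgr1 and Cd209a of the same list were too low to test. Plasma cell markers summed to 1026 to 1193 CPM in naive and 975 to 1071 CPM in primed cells, with 5 of 10 higher and 2 lower. This list shares Irf4, Prdm1 and Xbp1 with lists described above, so its sum and calls are not of plasma cells alone. Of the neutrophil list only 2 genes could be tested and neither passed, and of 5 tested stromal markers 3 rose at under 1 CPM on average and 1 fell, counts that became 1 and 0 without naive library 1, with the lower one also lost without any of the Batf3-/- CD62L+ libraries. The part of such RNA in the results was not tested.

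The recipients were then compared directly. Between Batf3-/- CD62L+ and WT CD62L+ cells 1 gene of 19942 passed (0.00501%), and 1153 (5.78%) had an unadjusted p under 0.05. Other methods called more, 141 genes with DESeq2 and 70 with limma's voom. Of the 6020 genes called against naive cells, 5175 (86.0%) had a fitted log2 difference between recipients within 0.5 of zero, with a median SE of 0.2, and 317 lay beyond 1. The same share over all genes tested was not taken, so the 86.0% cannot be set against it. The gene that passed was Myo6, at 36.6, 31.1 and 33.5 CPM in WT CD62L+ and at 10.3, 7.73 and 4.45 CPM in Batf3-/- CD62L+ libraries. It was lower in the latter without overlap (log2 -2.17, SE 0.24, edgeR adjusted p = 0.00655), and lost its call without Batf3-/- CD62L+ library 2 and in a fit of the 6 libraries alone (up to 0.25). Naive cells held 25.1 to 30.3 CPM and Batf3-/- CD62L- cells 8.94 to 11.4 CPM. Il7r, the next by p, was at 45.6, 40.7 and 32.7 CPM in WT CD62L+ cells, above the Batf3-/- CD62L+ libraries, and did not pass (log2 -1.18, SE 0.18, edgeR adjusted p = 0.0669).

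Many lists held a larger share of unadjusted p-values under 0.05 in this comparison than all genes did, without any call but Myo6. Of the 47 lists, those with the largest shares were heat shock (16 of 20), integrin and adhesion (11 of 19), erythroid (5 of 9), ribosome biogenesis (11 of 24), interferon (14 of 32), cytoskeleton (9 of 22, Myo6 among them), Th17 (4 of 10) and coinhibitory receptor genes (4 of 10). The erythroid sum was 10.6 to 37.4 CPM in Batf3-/- CD62L+ and 60.1 to 68.7 CPM in WT CD62L+ libraries, and its part in this comparison was not tested. The heat shock sum was 9572 to 10670 CPM in Batf3-/- CD62L+ and 7613 to 8339 CPM in WT CD62L+ libraries, and the median log2 difference of the list was 0.33. The median difference of the integrin list was -0.40 and that of the interferon list 0.33, against 0 over all genes. Isg15, which was at 13.7, 21.8 and 14.97 CPM in WT CD62L+ cells, is an example (log2 0.89 higher in Batf3-/- recipients, SE 0.19, edgeR adjusted p = 0.219). The Tfh list had a median difference of 0.02, and Cxcr5 stood at 124, 125 and 121 CPM in WT CD62L+ cells (log2 -0.11, SE 0.10).

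Within Batf3-/- recipients, 100 genes passed between CD62L+ and CD62L- cells (0.501%), 43 higher (0.216%) and 57 lower (0.286%) in CD62L+ cells, and 1620 (8.12%) had an unadjusted p under 0.05. Both comparisons share the Batf3-/- CD62L+ libraries with the one against naive cells. Of the Tfh list 5 of 20 were lower in the CD62L+ cells. Cxcr5 was at 272, 236 and 247 CPM in CD62L- cells, above every CD62L+ library (log2 -1.14 for CD62L+ minus CD62L-, SE 0.10, edgeR adjusted p = 6.3e-05). Bcl6 was at 104, 90.6 and 90.7 CPM there (log2 -0.86, edgeR adjusted p = 0.00441), and Il21 at 88.3, 86.2 and 75.9 CPM (log2 -1.17, edgeR adjusted p = 0.00667). The CD62L+ libraries stood between the naive and the CD62L- ones for these genes. Tigit was at 157, 169 and 209 CPM in CD62L- cells (log2 -2.78, edgeR adjusted p = 0.000165), and Il4 at 13.3, 11.4 and 8.06 CPM (log2 -2.73, edgeR adjusted p = 0.00166). Sostdc1, a secreted inhibitor of BMP signalling, was at 67.8, 53.4 and 48.4 CPM against 10.97, 10.6 and 8.95 CPM in CD62L+ cells (log2 -2.47, edgeR adjusted p = 6.83e-05). Without Batf3-/- CD62L+ library 2 the Il21 call was lost (0.0607).

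Dapl1, named for its likeness to a death-associated protein, was higher in the CD62L+ cells. It was at 39.1, 36.2 and 32.2 CPM in CD62L+ and at 15.6, 16.8 and 15.1 CPM in CD62L- cells (log2 1.18, SE 0.13, edgeR adjusted p = 0.000588), and its level in naive cells, 35.1 ± 2.1 CPM, was close to that of the CD62L+ cells (edgeR adjusted p = 0.901 between them). B cell markers followed the same direction, with 11 of 19 higher in CD62L+ cells. Cd79a, a chain of the B cell receptor, was at 29.8, 35.9 and 43.9 CPM in CD62L+ and at 5.47, 6.39 and 7.03 CPM in CD62L- cells (log2 2.54, edgeR adjusted p = 3.51e-05). The summed list stood at 133 to 192 CPM in CD62L- cells, and its part in the 43 higher calls was not tested.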

How the data were processed

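Per the labels' protocols, cDNA of sorted cells was amplified in 13 PCR cycles before transposase library preparation. FastQC, Trimmomatic 0.36, STAR 2.7.3a, featureCounts of Subread 1.6.5 and the build mm10 are named in the submitters' processing notes. The authors deposited raw counts per gene for 49492 genes, not normalized. Strand and pair handling are not given in the sources used here, so overlapping and near-identical genes cannot be separated. Even numbers made up 64.1 to 69.5% of low counts in the 6 libraries, and mates may have been counted singly.

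Genes were kept with edgeR's filterByExpr (minimum count 10, 19942 genes), scaled by TMM and fitted over all 15 libraries with edgeR's robust quasi-likelihood functions (R 4.3.3, edgeR 4.0.16). P-values were Benjamini-Hochberg adjusted over all genes tested, with a threshold of 0.05. A standard error is the log2 fold change over the root of F. Floors (3 counts over a group) and 95% Poisson intervals cover counting error only. They take counts as independent, so if mates were counted singly the intervals are too narrow and the floors too low. The fit was tested on data simulated for Batf3-/- CD62L+ against naive cells. It found 31 of 100 genes set to differ 2-fold and 48 of 100 set to differ 4-fold, with 7 false calls among 19942 genes. Only those genes, drawn at any level, were set to differ, against 30.2% of genes called in the real comparison. The recovered shares may therefore not hold for the real data.

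The comparison, its gene lists (47) and the naming rule were chosen with earlier results of these data known. The rule took 21 genes whatever their values, the 10 largest fold changes per direction (groups apart, 5 CPM or more), the 5 largest CPM differences per direction, and the 3 members per list and direction with the lowest p. Other genes were named to complete a count, and some genes that met the rule are not reported here. No pair of libraries was taken as a duplicate (chi-square per degree of freedom 58.8 or more). Alternatives were other scalings, filters, DESeq2 1.42.0, limma 3.58.1 with voom, subsets of libraries, each library left out, and the replicate number as a block.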

Additional observations from a re-analysis of the deposited data

Results flagged for a closer look

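A difference between groups under a test of the difference itself flagged 20 genes. Against WT CD62L+ cells, Myo6 was lower in Batf3-/- CD62L+ cells by a log2 difference of -2.17 (edgeR adjusted p = 0.00655), a call lost in 2 of 16 alternatives.

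Within Batf3-/- recipients, the following are log2 differences, CD62L+ minus CD62L-, that passed edgeR's quasi-likelihood test. Among helper genes, Cxcr5 differed by -1.14, Bcl6 by -0.86, Il21 by -1.17, Il4 by -2.73, Tigit by -2.78 and Sostdc1 by -2.47. Ascl2, a factor of early Tfh cells, had no count in CD62L+ libraries and 1.39 to 2.29 CPM in CD62L- ones, where the fitted -10.11 depends on the prior count and is no bound. Padi4, an enzyme that converts arginine to citrulline in proteins, differed by -3.75, from 1.43 to 1.59 CPM in CD62L+ to 16.3 to 23.4 CPM in CD62L- cells. H2-Q2, an MHC class I gene with near-identical relatives, differed by -2.18. Higher in CD62L+ cells were Dapl1 (1.18), Nrn1 (0.84), Nrp1 (0.72) and Nop58 (0.56), the last a ribosome biogenesis factor. B cell genes were higher too, with Cd74 at 2.07, Cd79a at 2.54, H2-Aa at 2.26 and Ighd at 2.01. Mir5107, which overlaps Cd74, differed by 2.1, and the gene model Gm20390, which overlaps Nme1 and Nme2, by 0.49.

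The calls of Nrn1 were lost in 8 of 16 alternatives, each of the 6 that left out a library included, with adjusted p up to 0.17. Those of Nop58 and Nrp1 were lost in 5 each, 4 of them by leaving out a library, with adjusted p up to 0.104 and 0.132. Ascl2 lost its call in 6, 5 of them by leaving out a library, with adjusted p up to 0.0901. Il21 lost its call in 2 of them, without Batf3-/- CD62L+ library 2 and in the fit of the 6 libraries compared. Il4, Bcl6, Ighd and Gm20390 lost theirs in that fit alone, with adjusted p of 0.0613, 0.0613, 0.0819 and 0.105. The other 10 genes kept their calls in all 16.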

How the results depend on the processing

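Against naive cells, limma's voom moved the count of lower genes from 2653 to 3982. Leaving out a library gave 4643 to 5125 calls, 2701 to 3144 higher and 1847 to 2133 lower. All other alternatives gave 5522 to 8023 calls. Against WT CD62L+ cells, the single call (0 higher, 1 lower) became 5 (3 higher, 2 lower) with upper quartile scaling, with no filter and with a stricter filter, 141 (79 and 62) with DESeq2, 70 (37 and 33) with voom and 0 (0 and 0) in a fit of the 6 libraries compared, where edgeR's test left no call. It became 2 (1 and 1) without library 3 of WT CD62L- and of Batf3-/- CD62L- cells, and 0 to 1 when a library was left out. Against Batf3-/- CD62L- cells, 100 calls (43 and 57) became 426 (202 and 224) with DESeq2, 334 (160 and 174) with voom, 26 (11 and 15) in the fit of 6 libraries, 55 (25 and 30) without those 2 libraries and 32 to 51 (13 to 20 and 18 to 32) when a library was left out. The cause of these shifts was not tested.

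Replicate numbers are shared by all groups, but the labels do not say that they pair libraries. Same-numbered libraries deviated together weakly (correlations 0.016 to 0.111), but each best with its own number in every pair of groups. In every group library 1 also had the lowest share of counts on ribosomal RNA loci. That share was 4.25 to 5.48% in libraries 1 and 8.75 to 17.58% in libraries 2 and 3. Both are hints from the data, and the main fit held no term for the number. With the number as a replicate block, the counts were 6948 (3774 higher, 3174 lower) against naive, 32 (15 and 17) against WT CD62L+ and 197 (77 and 120) against Batf3-/- CD62L- cells.

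Of 270 named genes, 235 kept their call in every alternative, 32 lost it in some, 3 gained it in some (Myc, Padi4 and Tnfaip3) and 0 reversed. Of 94 list counts, 66 stayed within 1.5 times in all. With the replicate number as a block, lower calls went from 4 to 7 in the RGS list, from 0 to 1 for coinhibitory receptors, recombination repair and nutrient transporters, and from 1 to 2 for heat shock, endoplasmic reticulum and BCL2 family genes. With no filter, they went from 4 to 2 for JAK, STAT and SOCS genes, from 5 to 3 for histones and from 3 to 1 for one-carbon genes. Areg, Pparg, Il17a and Il22 lost their calls with voom (adjusted p 0.0664 to 0.461), and Nfkbia with no filter (0.0526). At 70712711 counts or more per library, genes with few counts, such as several type 2 cytokines, did not pass the filter and were not tested.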
